A study of Drosophila melanogaster with 4 samples.

Results

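The binding of cap'n collar (CNC) to the stretch of chromosome arm 3R that holds its own gene, cnc, was examined in Drosophila melanogaster embryos. The members are the peaks of the authors' list whose midpoint lies on 3R between positions 18990000 and 19060000 of FlyBase release 5, a window of 70.0 kb around cnc. There were 18 such peaks, out of 1249 on 3R and 4758 in the whole list. The study performed chromatin immunoprecipitation followed by sequencing on whole embryos aged 16 to 24 h, with 2 libraries from CNC immunoprecipitate and 2 from input DNA, the sheared chromatin taken before immunoprecipitation. Both groups came from the strain Y cn bw sp and the same stage, without any treatment in the labels. All embryos carried y[1] and oc[R3.2] in the first part of the stated genotype. The middle part of the genotype joined Gr22b[1] and Gr22d[1] with the markers cn[1], CG33964[R4.2], bw[1] and sp[1], and the last part joined LysC[1], lab[R4.2] and MstProx[1] with GstD5[1] and Rh6[1]. The antibody was a rabbit polyclonal raised against a stretch of the CNC protein, and the labels do not say which CNC isoforms it recognises.

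CNC is a transcription factor with a basic leucine zipper and is the fly relative of vertebrate Nrf2. It binds DNA as a dimer with a small Maf protein. A long isoform, CncC, is held in check by Keap1 and switches on detoxification and antioxidant genes when it is released, whereas CncB acts in patterning of the embryonic head. In mouse cells Nrf2 is known to bind the control region of its own gene, and the data here show where on the cnc locus the list places CNC.

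Each peak has 1 score, assigned by the authors for the whole series, so the values below have no replicates and no error. Neither the labels nor the file state the scale of the score, the peak threshold or how the libraries entered the call. The read depth is unknown. The locus was chosen with results of these data known, and it is therefore described by ranks and shares, with no test.

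The locus held 1 very strong and broad peak, a second group of moderate peaks towards the other end of cnc, and a row of peaks over the neighbouring gene Irk1 that scored no higher than 15.87. The strongest peak ran from 19012893 to 19017560, was 4668 bp wide and scored 218.91. It ranked 5 of 4758 peaks by score and 2 of 1249 on 3R, behind a site from 12899839 to 12906369 that scored 232.21. The third peak of the arm by score reached 200.32. The next highest score at the locus was 34.9, so the strongest peak stood 6.27 times above it on the authors' scale. It held 27.9% of the 16753 bp that the 18 peaks covered together.

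The genes of the locus were placed on release 5 by subtracting a fixed 4174278 bp from their positions in release 6 of the genome. On that basis 5 annotated genes overlap the window. The cnc gene (CG43286 in the gene table, protein coding, 16 RefSeq transcripts) spans 41132 bp from 19011302 to 19052433. Irk1, which encodes an inwardly rectifying potassium channel, lies on its low-coordinate side from 18994039 to 19011364 and overlaps cnc by 63 bp. CG46310, a protein-coding gene from 18999595 to 19011364, lies wholly within the span of Irk1. The gene fzo, whose mitofusin product fuses mitochondria during sperm formation, lies inside the span of cnc from 19027366 to 19029756. CG4467 begins at 19053449, past the high-coordinate end of cnc, with 1015 bp between them. The gene table gives neither strand nor exons, so ends are named by coordinate and no peak was assigned to an exon, an intron or a transcript start.

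**Figure D1:**
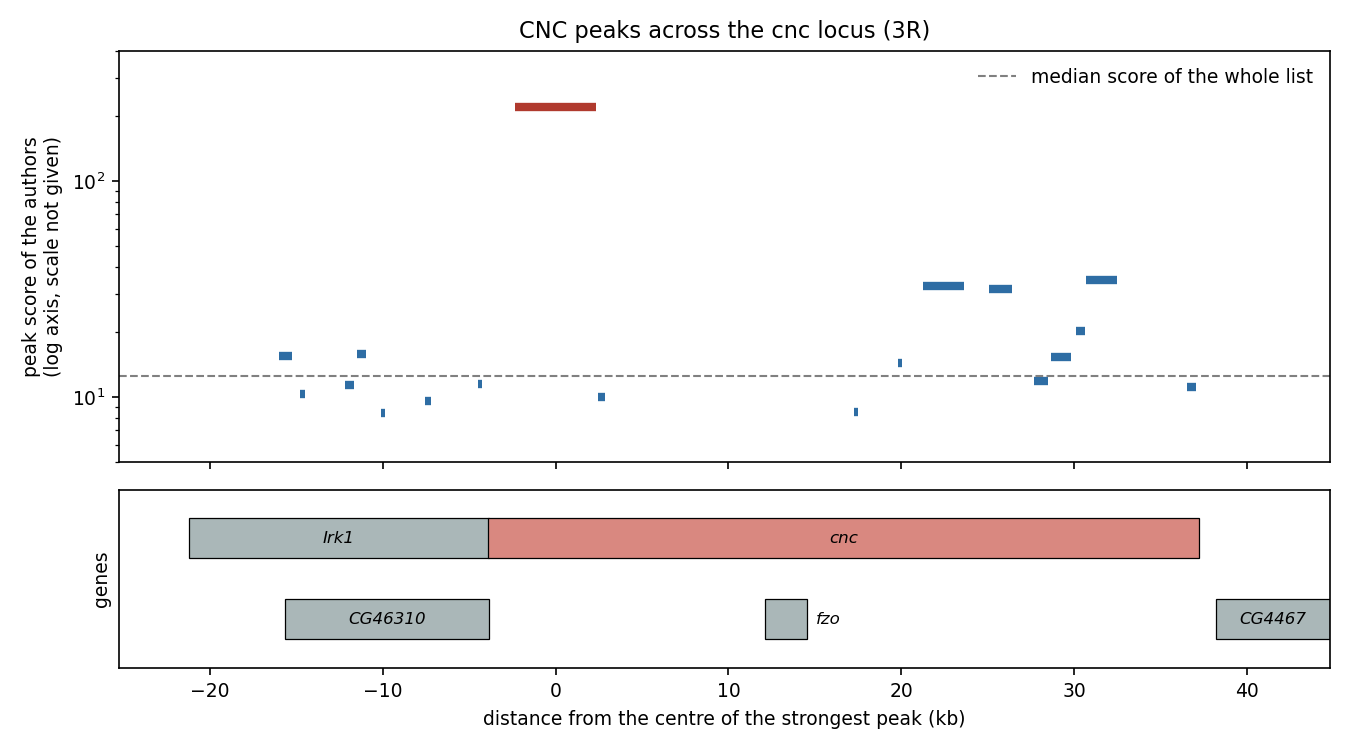
CNC peaks across the 70.0-kb window, drawn as bars whose length is the peak's width and whose height on a log axis is the authors' score, against distance in kb from the centre of the strongest peak, with gene spans below. The strongest peak (218.91) lies near the low-coordinate end of cnc, 14.4 kb without a peak follows, and the 3 next strongest peaks (31.58 to 34.9) lie towards the other end of cnc.

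Within cnc the peaks fell into 2 clusters, one near the low-coordinate end and one over the high-coordinate part of the gene, with a stretch without peaks between them. Of the 18 peaks, 11 had their midpoint in cnc and the other 7 in Irk1. The strongest peak began 1.59 kb inside the low-coordinate end of cnc and ended 6.26 kb inside it, and its midpoint lay at 9.54% of the gene's length. A weak peak 411 bp wide, between 19017656 and 19018066 (score 9.97), followed it after 95 bp.

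No peak was listed over the next 14.4 kb, from 19018067 to 19032480. This stretch contains fzo, which lay 9.30 kb from the nearest peak on one side and 2.72 kb from the nearest on the other. A distance this long between the edges of neighbouring peaks is common on the arm, where 24.0% of 1248 such distances were at least as long. Within the locus it was the longest.

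The high-coordinate part of cnc carried 9 peaks over 19.8 kb, from 19032481 to 19052239, which covered 45.0% of that stretch. Their scores ran from 8.51 to 34.9, with a median of 15.3 against 12.5 for the whole list. The highest of these peaks, from 19045929 to 19047678, was 1750 bp wide and ranked 355 in the list. Next came a peak of 2366 bp between 19036465 and 19038830, which scored 32.7 and ranked 391. Another, 1340 bp wide and between 19040285 and 19041624, scored 31.58 and ranked 421. These peaks lay in the upper part of the list without approaching the strongest site.

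The remaining peaks of this cluster were weaker. A run of 4 peaks with 81 to 307 bp between their edges ended in the highest of the cluster. Before it came peaks from 19042897 to 19043706 (score 11.85), from 19043856 to 19045043 (score 15.33) and from 19045351 to 19045847 (score 20.19). The first 2 peaks of the cluster, at 19032481 (229 bp, score 8.51) and 19035024 (240 bp, score 14.44), were narrow. The last, between 19051772 and 19052239 (score 11.08), stood 4.09 kb beyond the others and ended 194 bp before the high-coordinate end of cnc.

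The peaks over Irk1 were all under 1000 bp wide. All 7 had their midpoint in the part of Irk1 that it shares with CG46310, with widths from 201 to 717 bp and scores from 8.4 to 15.87. Of these 7, 2 scored above the list median, at 18999262 (score 15.47) and 19003761 (score 15.87). The others started at 19000428, 19003029, 19005150, 19007670 and 19010764, and scored 10.36, 11.4, 8.4, 9.56 and 11.44. Irk1 carried more peaks per length than cnc, 4.04 against 2.67 per 10 kb, but less covered sequence, with 16.1% of its span under peaks against 34.0% of cnc. Without the strongest peak the covered share of cnc was 22.6%. Over the whole of 3R, peaks covered 2.75% of the sequence between the first and the last, at 0.45 peaks per 10 kb. The 6552 bp of CG4467 inside the window and the 2391 bp of fzo held no peak.

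Taken one by one, most peaks of the locus were ordinary members of the list. Scores above the list median of 12.51 were found for 9 of 18 peaks, against 49.9% of the whole list. The 75th percentile of the list (17.6) was exceeded by 5 of 18 (27.8%), and 4 of 18 scored below its 25th percentile (10.02). Scores of 30 or more were found for 4 of 18 (22.2%, against 9.69% of the list). This cut lay just below locus scores of 31.58, 32.7 and 34.9, with the next lower at 20.19. The difference from the list at 30 therefore depends on the cut. Widths of 1000 bp or more were found for 5 of 18 (27.8%, against 14.6%). Leaving out the strongest peak, the median score of the other 17 was 11.9, below that of the list. The median width of the 18 was 492 bp against 382 bp.

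Score and width of a peak come from the same peak call, so each peak was also set beside listed peaks whose width was within 10% of its own. Of the 18, 7 scored above the median of these peaks of like width. The strongest peak scored above each of the 18 others in its width class, whose median was 92.2. With a fixed tolerance of 500 bp (4168 to 5168 bp), the class held 19 others with scores from 30.43 to 189.74. Of the 13 peaks under 1000 bp wide, more scored below the median of their width class than above it. High scores for their width were found at 19035024 (14.44 against a median of 10.0) and 19045351 (20.19 against 13.3). Low ones were found at 19003029 (11.4 against 14.3) and 19032481 (8.51 against 9.89). Apart from the strongest, broad peaks went both ways. Those at 19036465 (32.7 against 49.6) and 19043856 (15.33 against 23.8) scored low for their width. Those at 19040285 (31.58 against 26.7) and 19045929 (34.9 against 31.6) scored above the median of their class. Score divided by width is a different measure from the comparison within a width class, and on it the strongest peak was less extreme. At 46.9 score units per kb it ranked 17 among the 55 peaks of the list that scored 100 or more, whose median was 40.9. The median width of those 55 was 3652 bp, against 4668 bp for the strongest cnc peak.

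**Figure D2:**
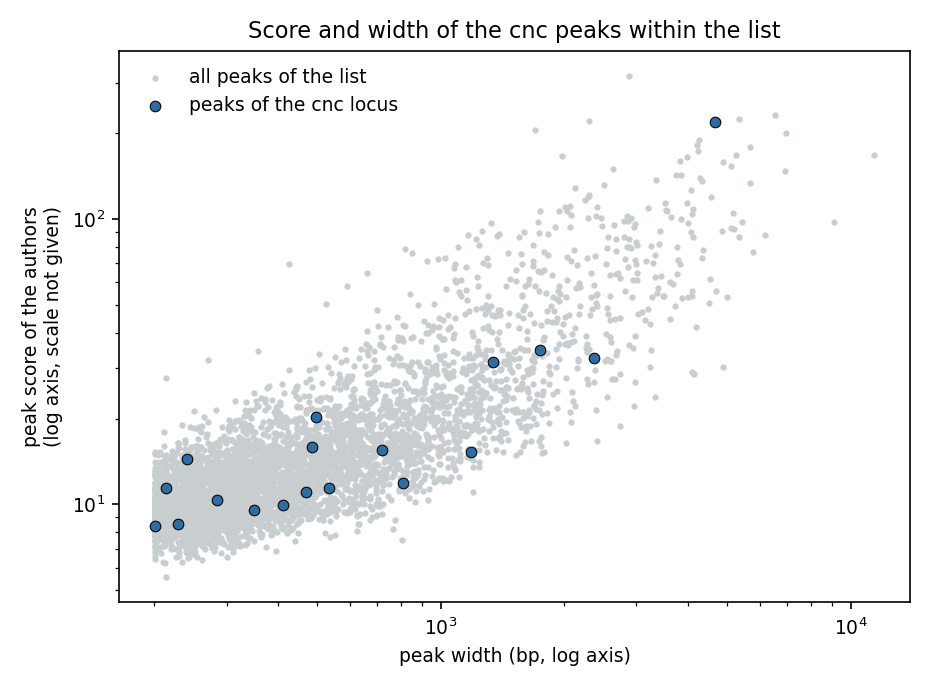
Score against width (both on log axes) for the 4758 peaks of the list, with the 18 peaks of the cnc locus marked. Most locus peaks lie within the cloud of the list, and the strongest (4668 bp, score 218.91) lies at its upper right edge.

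The cnc window was then placed among windows of the same size laid side by side along 3R. Beside it there were 395 complete windows between the first and the last peak of the arm, of which 156 (39.5%) held no peak. The other windows held a median of 1 peak and 697 bp of covered sequence, against 18 peaks and 16753 bp at cnc. At least as many peaks were found in 7 other windows (1.77%), 4 of which held exactly 18. The top score was at least as high in 1 other window (0.253%). In this register no other window had as much covered sequence (0%), and the next highest held 16032 bp.

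The rank by covered sequence depended on where windows began. Among 2754 overlapping windows placed every 10 kb and clear of the cnc window, 6 covered more, up to 26766 bp. All 6 lay over the same dense array of peaks between 12000 and 12120 kb of 3R, which is divided by a boundary between side-by-side windows. The window used here was placed around cnc, whereas the side-by-side windows were placed without regard to genes or peaks. Counting the 5 large arms, with windows in register with cnc on 3R and counted from coordinate 1 on the others, 4 of 1601 windows covered more than the cnc window, 3 of them on 2R and 1 on 2L. With 3R also counted from coordinate 1, 1 of its 393 windows clear of cnc (0.254%) covered at least as much. The 4 windows on 2R and 2L covered between 17330 and 21463 bp, with top scores from 97.27 to 178.71. None of the 4 had a top score as high as that of cnc.

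**Figure D3:**
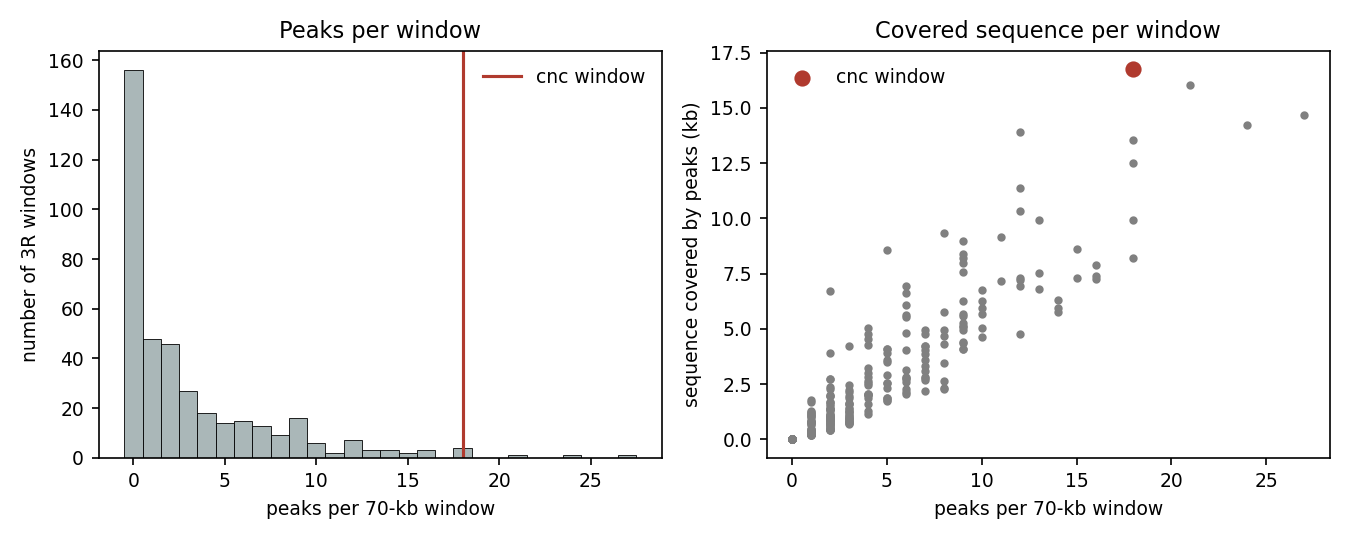
Left, the number of 3R windows of 70.0 kb by the number of peaks they hold, with the cnc window marked at 18. Right, the sequence covered by peaks in each window (kb) against its number of peaks, where the cnc window lies highest at 16.8 kb.

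Windows with at least as many peaks as cnc had lower top scores, which follows from its rank by top score. The 1 window with a higher top score, at 12900 to 12970 kb, held 2 peaks. The 3 windows with more peaks lay at 11990 to 12060 kb (27 peaks), 12060 to 12130 kb (24 peaks) and 21090 to 21160 kb (21 peaks), and their top scores were 32.26, 49.59 and 85.38. The first 2 of these adjoin each other and divide the dense array. Of the windows with exactly 18 peaks, those starting at 6180, 9820, 17380 and 25570 kb had top scores of 109.8, 41.09, 24.14 and 98.24. Among the 7 windows with at least as many peaks, top scores ran from 24.14 to 109.8, against 218.91 at cnc. The largest covered lengths in other windows were 16032 bp at 21090 to 21160 kb, 14689 bp and 14225 bp in the windows of the dense array, 13928 bp at 19550 to 19620 kb and 13553 bp at 6180 to 6250 kb.

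The windows nearest to cnc by the summed difference in rank of the 3 measures (number of peaks, covered bases, top score) were, in order, those starting at 6180, 25570, 21090, 19550 and 8210 kb. The first 2 of these held 18 peaks each, over 13553 and 12502 bp, with top scores of 109.8 and 98.24. The windows at 19550 and 8210 kb held 12 peaks each and had top scores of 164.77 and 134.08. None of the 395 side-by-side windows of the arm reached cnc in all 3 measures, which follows from covered sequence alone, since in this register none covered as much.

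A closer comparison is with the surroundings of other strong peaks. On 3R 14 other peaks scored 100 or more. A window of 70.0 kb centred on the strongest cnc peak held 17 further peaks, among them a peak from 18982616 to 18983738 (score 53.59) that lies outside the window used above. The windows centred on the other 14 held from 1 to 17 further peaks, with a median of 8. At least as many as at cnc were found around 1 of the 14 (7.14%), the peak at 6212504, whose score was 109.8. Around the strongest peak of the arm there were 16, and around the third strongest 4. Leaving out the central peak, the cnc surroundings covered 12740 bp, against 270 to 11339 bp for the other 14. Of these 14 windows, the 2 centred at 19555418 and 19577059 overlap each other and share peaks.

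**Figure D4:**
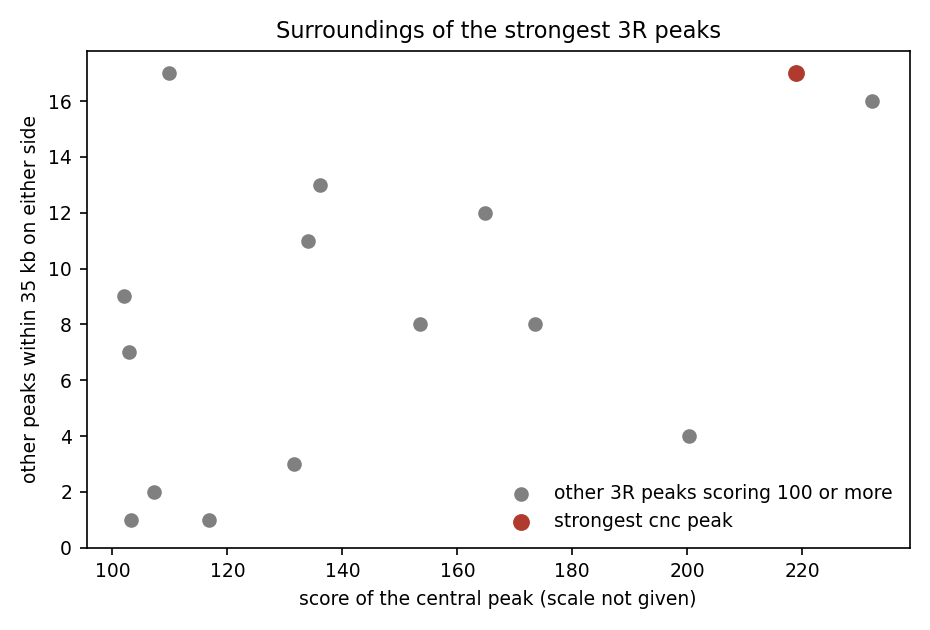
Number of other peaks within 35 kb on either side of each 3R peak scoring 100 or more, against the score of that peak. The strongest cnc peak has 17 others around it, equalled by 1 of 14 other strong peaks (score 109.8).

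The windows next to the locus held fewer peaks than it did, as did all but 7 of the 395 other windows of the arm. At the density of the arm a window of 70.0 kb would hold 3.15 peaks. The 8 nearest, 4 on each side over 560 kb in all, held 13 peaks together and 0 to 5 each. Of these 8, 4 were empty, against 39.5% of the 395 windows of the arm. The 2 nearest on the low-coordinate side held 5 and 4 peaks, above the arm's median of 1. The highest score among them was 68.9. On the low-coordinate side the nearest peak outside the window was the one from 18982616, 15.5 kb below the first peak of the locus. On the other side the nearest was a narrow peak from 19077172 to 19077420 (score 8.98), 24.9 kb beyond the last, and a further 82.4 kb without a peak followed. The limits of the window therefore fell in stretches without peaks, and counting any overlap in place of midpoints gave the same 18. The nearest other 3R peak scoring 100 or more started at 19555418, 542 kb away between midpoints.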

How the data were processed

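All values come from 1 list of peaks deposited without a sample name. The submitters' processing notes name BWA, MACS2, CASAVA in versions 1.7.0.3 and 1.7.0.2, and the build BDGP5. The peak caller is MACS and the coordinates are those of FlyBase release 5, per the file headers. The authors' deposited score of each peak is used as given and only within this list, together with the deposited start and end. Positions are 1-based. Width and midpoint were computed from them. Windows were in register with the cnc window and complete between the first and last 3R peak, and a peak belonged to the window that held its midpoint. Genes came from a RefSeq table of release 6, with 4174278 bp subtracted, an offset stated for this stretch of 3R and not checked against sequence. Gene models of release 6 may differ from those of release 5. Sequence was not analysed here.

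The members, windows and thresholds were chosen with earlier results of these data known. Every peak of the window was named, with the 5 windows with the most peaks and those tied with the last of them, the 5 with the most covered bases and the 5 most like the cnc window. Peaks outside the window, including the one stronger 3R peak, are named for comparison. The counting code was checked on 50 simulated lists with known counts, and no simulated list was set against the data. Computations used Python 3.11.15, numpy 2.4.6, pandas 2.3.3, scipy 1.17.1 and matplotlib 3.10.9.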

Additional observations from a re-analysis of the deposited data

How the results depend on the processing

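With the 50% of peaks with the highest score the window held 9 peaks, and with peaks under 1000 bp apart merged it held 11 regions, against 18 peaks as listed. Merging under 200 bp left 14, and covered bases stayed between 13252 and 18936 bp. The values after merging, 17277 bp under 200 bp and 18936 bp under 1000 bp, include the joined gaps between peaks. After merging under 1000 bp, 0% of other 3R windows had as many regions. The share of windows with as many peaks was otherwise 0.763 to 3.54%, and that with as much covered sequence 0 to 0.595%. Each share was taken against the value at cnc under its own setting, for example 9 peaks for the 50% with the highest score. Without the strongest peak of every window, a choice made after seeing the data, 4.05% of windows had as high a second score. The strongest cnc peak ranked 23 by width and 748 by score divided by width, where narrow peaks come first, against 5 by score. Windows as long as the cnc gene (41132 bp) were also added after seeing the data. They were set against the 11 peaks and 13967 bp of cnc itself, and gave 2.98% and 0.595%. No paired analysis was possible because the list holds no value per replicate, and no replicate could be left out for the same reason. The read depth is unknown.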
